A study of Danio rerio with 4 samples.

Results

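The PAR bZIP and NFIL3 transcription factors are a family of clock output regulators, and the genes described here are the 9 of 10 listed members (dbpa, dbpb, tefa, tefb, hlfa, nfil3, nfil3-2, nfil3-5 and nfil3-6) whose symbols were found among the 14962 genes of the authors' deposited heart table. Members were chosen by symbol, ignoring case, and the tenth, hlfb, was not matched and is not analysed here. The study compared hearts of adult zebrafish of the Ekkwill strain that received alfacalcidol, a vitamin D analog, or vehicle by injection on 3 consecutive days, with hearts taken 24 hours after the last injection. The labels give no genotype other than the strain, no hour of day at which hearts were taken, and no statement of whether a library came from a single fish or a pool. RNA was measured by sequencing, in 2 alfacalcidol and 2 vehicle libraries with 31427486 to 39572163 assigned reads each. It was also measured in a separate deposited edgeR comparison that holds no values per library. That comparison does not state how many libraries or animals stand behind its p-values.

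In vertebrates the proteins of this family share a basic leucine zipper and bind the same DNA element, the D-box. DBP, TEF and HLF, the PAR bZIP proteins, activate transcription through that element, whereas NFIL3, also called E4BP4, represses through it. The CLOCK and BMAL activators drive the mouse Dbp gene through E-boxes, and the REV-ERB and ROR nuclear receptors repress and activate the mouse Nfil3 gene, so that activator and repressor levels peak at different times of day. Zebrafish carry several copies of most of these genes, and in zebrafish the D-box also takes part in the response of genes to light.

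Because the table and the 4 count libraries differed in tissue, they are described apart. The cardiac myosin light chain gene myl7 stood at 20203 CPM (reads of a gene scaled to a common library total, not to gene length) in the authors' deposited table. In the count libraries it stood at 15.1 and 17.1 CPM under the alfacalcidol label and at 16.6 and 15.9 CPM under the vehicle label. The epidermal keratin gene krt4 stood at 99.8 CPM in the authors' deposited table. It stood at 12604 and 19693 CPM in the alfacalcidol libraries and at 20502 and 12638 CPM in the vehicle libraries. Some genes of other tissues were also higher in the 4 libraries than in that table. The skeletal muscle gene actc1b stood at 8.75 CPM in the table and at 13649 to 16401 CPM in the 4 libraries. The cartilage gene col2a1a stood at 2.69 against 5711 to 6007 CPM. The liver gene tfa stood at 26.9 against 1234 to 1669 CPM. The pancreas gene ctrb1 overlapped, at 16.6 CPM in the table against 13.1 to 28.3 CPM. The labels call all 4 libraries heart, while the defining heart transcripts of these libraries were at a small fraction of their level in the table. The table does not name its numerator. A positive log2 fold change is read here as higher with alfacalcidol, from the sign of cyp24a1, the vitamin D 24-hydroxylase gene, which the authors' deposited table lists at 1.53 (edgeR adjusted p 8.19e-05). Every direction taken from the table rests on that reading. In the count libraries the same gene did not follow the labels. It stood at 6.80 and 3.07 CPM in alfacalcidol libraries 1 and 2, against 3.50 and 9.70 CPM in vehicle libraries 1 and 2 (log2 fold change -0.43). Vehicle 2 was the highest and alfacalcidol 2 the lowest. The edgeR comparison of labels given below did not call cyp24a1, as it called 0 genes. That test was conservative, so this does not show whether cyp24a1 responds to alfacalcidol in the tissue of these 4 libraries. Their group names are used here as the labels give them. In either source, a bulk measurement cannot tell fewer cells of a type from less RNA per cell.

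In the authors' deposited table, the 5 measured PAR bZIP genes fell, while the NFIL3 copies moved in both directions. Whether each zebrafish copy activates or represses was not tested. All 5 measured PAR bZIP genes were called lower with alfacalcidol at an edgeR adjusted p under 0.05, against 9.22% of all genes called lower in the authors' deposited table. Among the 4 NFIL3 copies, nfil3 and nfil3-5 were called higher, against 10.9% of all genes, nfil3-6 was called lower, and nfil3-2 was not called in the authors' deposited table. In all, 8 of 9 genes passed, where 20.1% of the table passed. Among the 7568 genes at or above the lowest level of these 9, 19.5% passed. The members were chosen with earlier results of these data known, so shares of members called are descriptions and not tests. At an adjusted p under 0.01 the authors' deposited table called 8 of 9 genes and 13.7% of all, with Bonferroni adjustment 8 of 9 and 6.20%, at an adjusted p under 0.1 all 9 and 25.4%, and with a 2-fold minimum 7 of 9 and 8.43%. The median log2 fold change in the authors' deposited table was -1.73 over the PAR bZIP genes and 1.28 over the NFIL3 copies, beside 0.01 over all genes.

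Among the activators, the pair of dbp genes encodes the D-box binding proteins whose mouse counterpart is among the most strongly rhythmic transcripts known. The gene dbpb (chromosome 16, 13709573 to 13723355, GRCz10) had the largest decrease of the PAR bZIP genes, which the authors' deposited table puts at a log2 fold change of -2.43, a 5.41-fold difference, with a mean level of 153 CPM (edgeR adjusted p 2.99e-21). Its paralog dbpa (chromosome 19, 10258190 to 10277445) fell by 1.73 on the log2 scale, at 49.7 CPM, as the authors' deposited table lists it (edgeR adjusted p 6.38e-08). Only 32 genes of the 14962 had a lower value than dbpb, which held place 33 from the lowest in the authors' deposited table, and dbpa held place 90.

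The tef genes, named for thyrotroph embryonic factor, encode the second pair of PAR bZIP activators, and tefa is known in zebrafish as a light-induced gene. The gene tefb (chromosome 3, 5142981 to 5157744) fell by 2.11 on the log2 scale, at 21.2 CPM, as the authors' deposited table lists it (edgeR adjusted p 1.05e-13). Its paralog tefa (chromosome 12, 19022959 to 19031303) fell by 1.65 at 94.8 CPM in the authors' deposited table (edgeR adjusted p 1.69e-11). They held places 49 and 102 from the lowest in the authors' deposited table. In both the dbp and the tef pair the authors' deposited table gives the copy named b the larger decrease, the log2 fold changes differing by 0.70 for dbp and 0.46 for tef. These differences between copies were not tested because the table holds no values per library.

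The last PAR bZIP gene measured, hlfa, encodes hepatic leukemia factor. It (chromosome 3, 11618818 to 11657952) had the smallest change of the 5, which the authors' deposited table lists as a log2 fold change of -0.93 or 1.91-fold, at 79.9 CPM (edgeR adjusted p 4.55e-05). It held place 564 from the lowest, just outside the central 90% of all genes, which ran from -0.81 to 1.01 in the authors' deposited table.

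**Figure D1:**
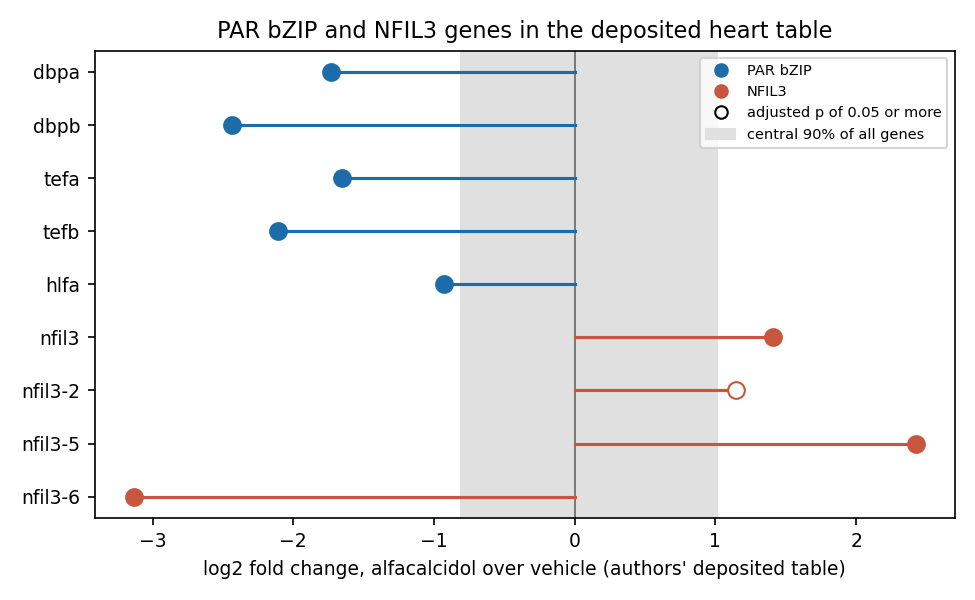
Log2 fold change of the 9 genes in the authors' deposited table, alfacalcidol over vehicle, with PAR bZIP genes in blue, NFIL3 copies in red, open points for an adjusted p of 0.05 or more, and a grey band for the central 90% of all genes. The 5 PAR bZIP genes lie between -2.43 and -0.93, and the NFIL3 copies lie on both sides of 0, from -3.13 for nfil3-6 to 2.42 for nfil3-5.

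Among the NFIL3 copies, nfil3-5 and nfil3-6 had the largest changes, in opposite directions. The gene nfil3-6 (chromosome 3, 13949850 to 13953705) had a log2 fold change of -3.13, 8.78-fold lower, and held place 10 of 14962 from the lowest, with the authors' deposited table listing it at 18.1 CPM (edgeR adjusted p 9.02e-20). The gene nfil3-5 (chromosome 6, 7936688 to 7944503) had a log2 fold change of 2.42, 5.36-fold higher, and held place 251 from the highest, with the authors' deposited table listing it at 25.6 CPM (edgeR adjusted p 3.86e-08). These values put the ratio of nfil3-5 to nfil3-6 transcripts 47.1-fold higher with alfacalcidol in the authors' deposited table, a difference of 5.56 on the log2 scale given without a test.

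The copy that carries the family's plain name, nfil3 (chromosome 10, 5413920 to 5418952), rose by a log2 fold change of 1.41, 2.66-fold, at 21.4 CPM in the authors' deposited table (edgeR adjusted p 1.71e-07). The remaining copy, nfil3-2 (chromosome 3, 13933319 to 13935340), had a log2 fold change of 1.15 at 10.3 CPM, the lowest level of the 9, with an unadjusted p of 0.0120 and an adjusted p of 0.0571 from edgeR in the authors' deposited table. Of 321 genes with at least the level and at least the size of change of nfil3-2, 319 (99.4%) passed in the authors' deposited table, so nfil3-2 was among the 2 that did not. The set was picked for large changes at that level or above, so a high share was built in. It does not bear on whether nfil3-2 changed. The spread between libraries behind the p of nfil3-2 is not shown by the table.

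The NFIL3 copies lie on 3 chromosomes, and 2 of them are neighbours. The genes nfil3-2 and nfil3-6 lie 14509 bases apart on chromosome 3, with no other gene of the table between them, yet stood at 1.15 and -3.13 in the authors' deposited table, so that their ratio differed 19.4-fold between groups. Neighbours named here are the nearest genes of that table, at gaps from 1140 bases (phf5a to tefa) to 155119 bases (FOXK2 to hlfa). Genes outside the table may lie closer. The genes on the outer sides of this pair, gcdhb and si:ch211-108d22.2, lay 126780 and 53538 bases away. They had log2 fold changes of -0.35 and -0.15 and were not called in the authors' deposited table. The neighbours of nfil3-5 were klf1 at -0.07, not called, and slc44a2, called lower at -0.71 in the authors' deposited table. The gene nfil3 lay between si:dkey-60d5.3, called lower at -0.81, and auh at 0.17, not called, in the authors' deposited table. The neighbour on either side of dbpb, tefa and hlfa was not called, with values from -0.39 to 0.57 in the authors' deposited table. Of the genes next to dbpa, grin2da was called higher at 0.83 and znf865 was not called at -0.11, and of those next to tefb, CU681842.1 was called lower at -0.72 and myh9b was not called at -0.44, as the authors' deposited table has them. The sources used here do not say how reads shared between NFIL3 copies were counted, so the values of single copies carry that uncertainty.

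**Figure D2:**
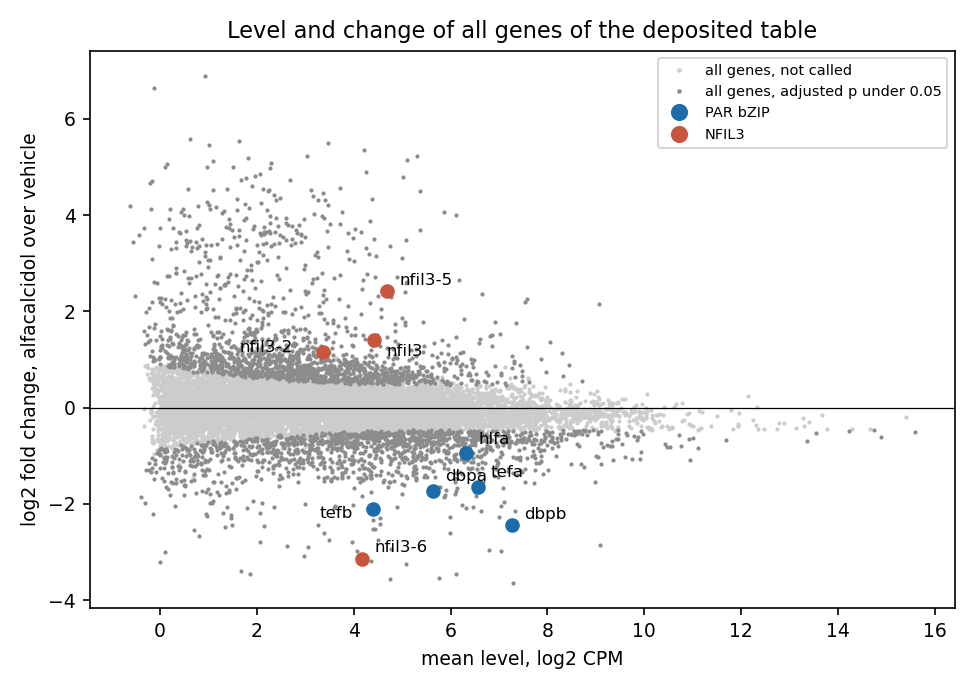
Mean level (log2 CPM) against log2 fold change, alfacalcidol over vehicle, for all 14962 genes of the authors' deposited table, with called genes in dark grey, PAR bZIP genes in blue and NFIL3 copies in red. The 9 genes lie at levels between 3.36 and 7.26 on the log2 scale, and nfil3-2, itself not called, lies among genes that were called.

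The genes that regulate or accompany these factors moved in opposite directions by role in the authors' deposited table. Because the labels give no hour of collection for either group, hour and alfacalcidol cannot be told apart in these values. The same holds for the 9 genes above. Shares of called genes below can be set beside 10.9% higher, 9.22% lower and 20.1% either way over all genes. The lists were chosen with earlier results of these data known, so these shares are descriptions and not tests. Of 6 activator genes of the clock (the CLOCK, NPAS2 and BMAL genes), 4 were called higher, 0 lower and 2 not called, with a median change of 0.81 on the log2 axis of the authors' deposited table. They were clocka at 1.44, arntl2 at 1.07, arntl1a at 0.83 and arntl1b at 0.80, the arntl genes encoding BMAL proteins, in the authors' deposited table. Of 15 repressor genes, 0 were called higher, 12 lower and 3 not called, with a median of -1.38 in the authors' deposited table. The 4 with the lowest p were per1b at -3.56, bhlhe40 at -3.46, cipca at -3.08 and cry2 at -2.94 in the authors' deposited table. The mouse counterparts of bhlhe40 and cry2 repress transcription at E-boxes, the element through which CLOCK and BMAL act on Dbp.

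The nuclear receptors that control Nfil3 in mouse fell into opposing sets. The authors' deposited table called all 9 measured genes, 5 of them lower and 4 of them higher. The lower 5 were all of the REV-ERB class, among them nr1d1 at -2.97, nr1d4b at -1.60 and nr1d2b at -1.37, and the 4 higher were all of the ROR class, led by rorcb at 2.70 in the authors' deposited table. The REV-ERB proteins repress and the ROR proteins activate through a shared element. Beside these receptor values, nfil3 and nfil3-5 were called higher and nfil3-6 was called lower in the authors' deposited table. The copy nfil3-2, at 1.15, was not called. Whether the receptors act on any of these copies was not tested.

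Genes reported to respond to light or to act through the D-box in zebrafish were mostly lower. Of 9 measured, 1 was called higher, 6 lower and 2 not called, with a median of -1.10 in the authors' deposited table. The 4 with the lowest p were lonrf1l at -1.50, cry1aa at -1.10, the DNA repair gene ddb2 at -1.76 and per2 at -1.36 in the authors' deposited table, and 2 of them, cry1aa and per2, are also counted among the repressors above. The higher one, outside the naming rule, was the DNA repair gene xpc at 1.08 in the authors' deposited table. In a list of C/EBP names and kin with 6 measured members (5 cebp genes and ddit3), 1 was called higher, 1 lower and 4 not called in the authors' deposited table. The lower one was cebpa, a bZIP factor gene, at -0.65, and the higher one was cebpz, which shares the name but encodes no bZIP protein, at 0.55 in the authors' deposited table.

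A list of 19 candidate targets, assembled from genes tied to the PAR bZIP factors mostly in mouse liver, had 2 called higher, 4 lower and 13 not called, with a median of -0.14 in the authors' deposited table. Called lower were ces2, a carboxylesterase gene, at -1.73 and slc6a6b, a taurine transporter gene, at -0.998 in the authors' deposited table. Also called lower there were ppargc1a, a coactivator gene, at -0.91 and pparaa, a fatty acid receptor gene, at -0.96. The level of ces2 was only 1.81 CPM in the authors' deposited table. Called higher, outside the naming rule, were gstt1a at 1.05 and cyp2ad2 at 0.79 in the authors' deposited table. The pyridoxal kinase genes pdxka and pdxkb, whose mouse counterpart is a well known PAR bZIP target, had log2 fold changes of -0.29 and 0.43 and were not called in the authors' deposited table. The share called was 6 of 19.

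**Figure D3:**
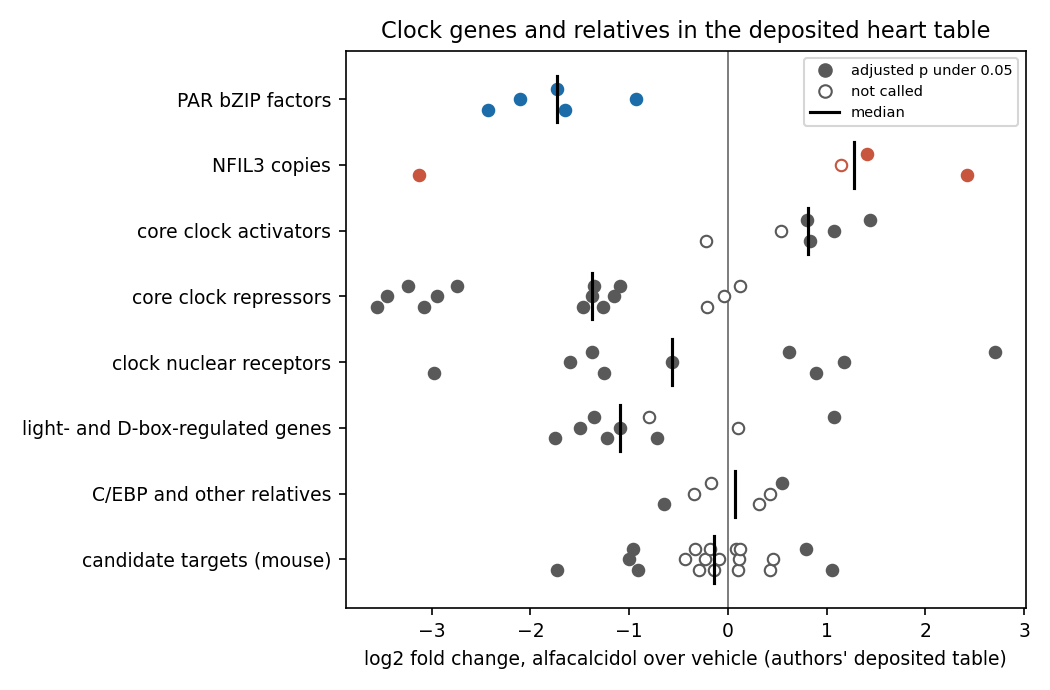
Log2 fold change, alfacalcidol over vehicle, of single genes (points) of the PAR bZIP and NFIL3 families and of 6 lists of clock genes, relatives and candidate targets in the authors' deposited table, filled where the adjusted p is under 0.05, with the list median as a black bar. PAR bZIP genes and clock repressors lie mostly below 0, clock activators mostly above it, and candidate targets around it, with medians of -1.73, -1.38, 0.81 and -0.14.

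Markers of other cell types moved in the same table, where 9.22% of all genes were called lower. All 4 neutrophil genes measured (lyz, mmp9, npsn and mpx) were called lower, from -2.43 to -1.31, at levels of 1.43 to 4.18 CPM in the authors' deposited table. Of 6 macrophage genes 3 were called lower and 0 higher, and of 5 endothelial genes 3 were called lower and 0 higher, with medians of -0.56 and -0.65 in the authors' deposited table. Of 9 cardiomyocyte genes 3 were called lower and 0 higher, with a median of -0.39 in the authors' deposited table. The 3 were nppb at -1.37, nppa at -1.09 and myh6 at -0.65. The 6 not called (myl7, cmlc1, actc1a, tnnt2a, vmhcl and vmhc) ran from -0.45 to -0.10. The authors' deposited table also called 2 of 3 epidermal, 2 of 3 erythrocyte, 2 of 6 skeletal muscle and 1 of 2 liver genes, all of them lower, while 0 of 2 cartilage genes and 0 of 1 pancreas genes were called. The 2 skeletal muscle genes called, ckma and acta1b, stood at 1492 and 1410 CPM there. The 4 not called stood at 1.15 to 8.75 CPM, with log2 fold changes of 0.06 to 0.23. The epidermal gene krt5 and the liver gene apoa1b, not called, had log2 fold changes of 0.87 and 0.41. The part of these shifts in the values of the clock output genes was not tested, and summed levels per group cannot be had from the table.

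In the 4 count libraries, the 9 genes did not differ between labels beyond the spread of the libraries. The edgeR quasi-likelihood test called 0 of 22428 genes (0%), with 128 (0.571%) at an unadjusted p under 0.05, and DESeq2 also called 0, with 19. A calibrated test would put a share near 0.05 there with no difference at all, so both tests were conservative in these libraries. The absence of calls therefore does not show that the groups were alike. None of the 9 genes had an unadjusted p under 0.05, and each had an edgeR adjusted p of 0.99997. Nothing in the labels says that the libraries came from separate animals, so these p-values measure only the spread between libraries.

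The PAR bZIP genes showed the following values per library. The gene dbpb stood at 59.2 and 44.6 CPM in alfacalcidol libraries 1 and 2, against 46.3 and 65.9 CPM in vehicle libraries 1 and 2 (log2 fold change -0.12 ± 0.19 SE, 95% interval -0.58 to 0.34, n = 2 each). Its paralog dbpa stood at 64.3 and 50.03 CPM in the alfacalcidol libraries, against 49.9 and 61.0 CPM in the vehicle libraries (log2 fold change 0.04, interval -0.31 to 0.39). For both genes alfacalcidol 1 and vehicle 2 were high, alfacalcidol 2 and vehicle 1 were low, and the labels overlapped. The gene tefa had the opposite order, at 113.6 and 136.2 CPM in the alfacalcidol libraries and 134.4 and 108.9 CPM in the vehicle libraries (log2 fold change 0.04, interval -0.27 to 0.35). Its paralog tefb stood at 69.8 and 76.1 CPM in the alfacalcidol libraries and 81.2 and 71.1 CPM in the vehicle libraries (log2 fold change -0.06, interval -0.29 to 0.17). The gene hlfa stood at 108.6 and 97.0 CPM in the alfacalcidol libraries and 98.4 and 109.4 CPM in the vehicle libraries, the order of the dbp genes (log2 fold change -0.02, interval -0.24 to 0.21).

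The NFIL3 copies followed the order of the tef genes. The gene nfil3-5 stood at 118.8 and 140.1 CPM in the alfacalcidol libraries, against 144.1 and 126.7 CPM in the vehicle libraries (log2 fold change -0.06, interval -0.32 to 0.20). The gene nfil3-6 stood at 11.4 and 15.1 CPM in the alfacalcidol libraries, against 15.5 and 13.1 CPM in the vehicle libraries (log2 fold change -0.11, interval -0.49 to 0.28). For both copies alfacalcidol 1 was the lowest library and vehicle 1 the highest. The gene nfil3 stood at 32.4 CPM in both alfacalcidol libraries and at 33.8 and 27.7 CPM in the vehicle libraries (log2 fold change 0.08, interval -0.19 to 0.34). The gene nfil3-2 stood at 27.3 and 30.9 CPM in the alfacalcidol libraries and 32.9 and 29.9 CPM in the vehicle libraries (log2 fold change -0.11, interval -0.35 to 0.13). In 0 of the 9 genes were both alfacalcidol libraries beyond both vehicle libraries, an arrangement that 21.0% of all tested genes showed. The highest library exceeded the lowest by between 1.13-fold, for hlfa, and 1.48-fold, for dbpb. For each of the 9 genes the interval leaves out the log2 fold change that the authors' deposited table gives for the same gene. The sources differ in tissue, so the intervals do not test the values of the authors' deposited table.

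**Figure D4:**
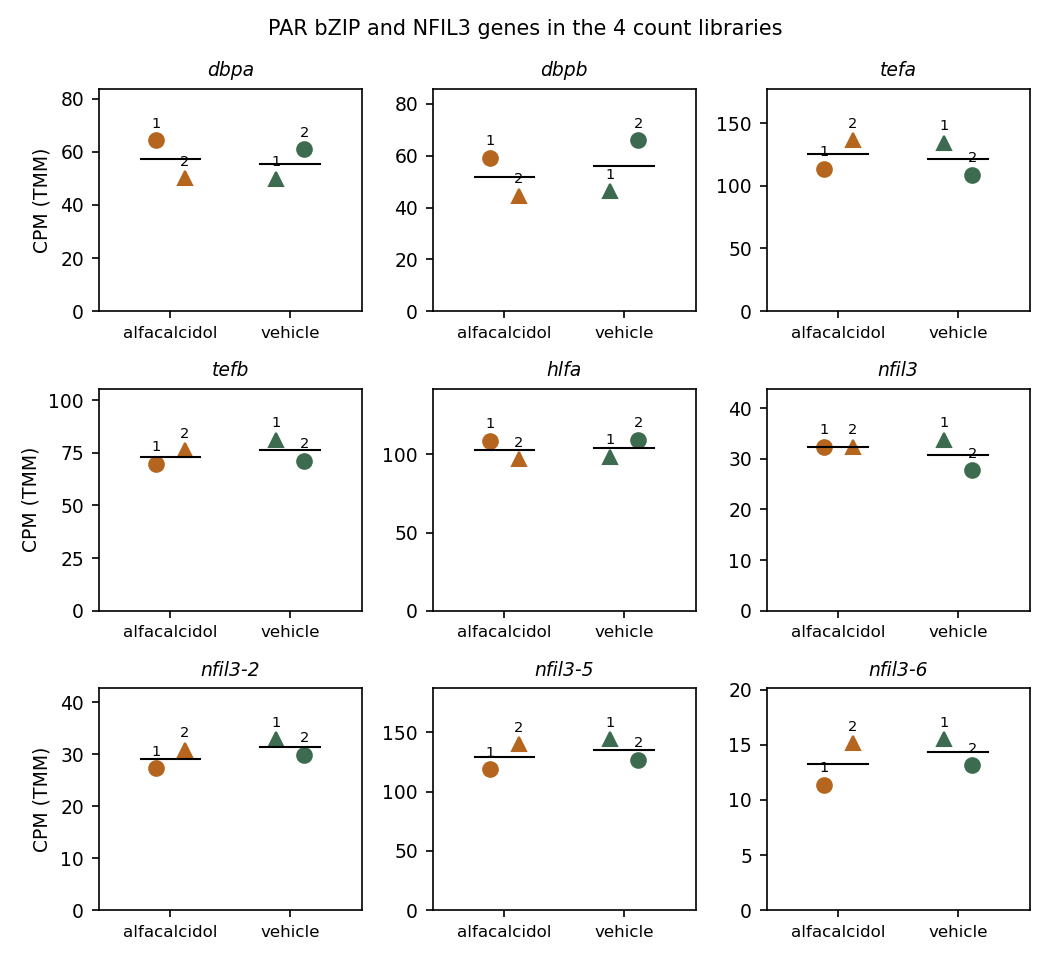
Level (CPM with TMM scaling, linear axes from 0) of the 9 genes in each count library, alfacalcidol left and vehicle right, with the library number above each point, the group mean as a bar, and like symbols for alfacalcidol 1 with vehicle 2 (circles) and for alfacalcidol 2 with vehicle 1 (triangles). The labels overlap for every gene, and for all 9 genes the circles lie on one side of the triangles (for nfil3 by 0.03 CPM only), above them for dbpa, dbpb and hlfa and below them for the other 6.

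The libraries fell into pairs that crossed the labels. In all 9 genes alfacalcidol 2 and vehicle 1 lay on one side of alfacalcidol 1 and vehicle 2, as they did in 54.4% of all tested genes, although for nfil3 the alfacalcidol libraries were only 0.03 CPM apart. The 3 genes dbpa, dbpb and hlfa were lower in alfacalcidol 2 and vehicle 1, and the other 6 were higher there. Of 16 clock and light-regulated genes named above by lowest p, 5 (nr1d1, bhlhe40, per2, nr1d2b and arntl2) had the order of dbpb. Another 3 (clocka, rorcb and nr1d4b) had the opposite order, and 8 had neither. A crossed order was therefore no more common among these 16 genes than among all tested genes (54.4%). For arntl2 the order rests on a small margin, with alfacalcidol 2 at 35.16 CPM and vehicle 2 at 35.29 CPM. The gene nr1d1, one of the 5, stood at 55.5 and 38.8 CPM in the alfacalcidol libraries and 46.7 and 57.4 CPM in the vehicle libraries. The gene bhlhe40 stood at 98.1 and 72.1 CPM in the alfacalcidol libraries and 79.3 and 99.6 CPM in the vehicle libraries. Of the 3 with the opposite order, rorcb stood at 48.1 and 53.8 CPM in the alfacalcidol libraries. Its vehicle libraries stood at 52.9 and 50.2 CPM. Genes used above to compare the sources were crossed too. The epidermal gene krt4 and the cardiac gene myl7 were higher in alfacalcidol 2 and vehicle 1. The genes cyp24a1, actc1b, tfa and ctrb1 were higher in alfacalcidol 1 and vehicle 2, and col2a1a had neither order. The part of tissue content or of vitamin D response in these orders was not tested.

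Ratios between copies within a library, which need no scaling, varied over the 4 libraries by 0.10 to 0.43 on the log2 scale among the NFIL3 pairs, least for nfil3-5 to nfil3-2 and most for nfil3 to nfil3-6. The log2 read ratio of nfil3-5 to nfil3-6 was 3.38 and 3.21 in the alfacalcidol libraries, against 3.22 and 3.27 in the vehicle libraries. That is a range of 0.18 over 4 libraries, where the authors' deposited table, which differs in tissue, gave a difference of 5.56 between groups. The ratio of nfil3-2 to nfil3-6 was 1.26 and 1.03 in the alfacalcidol libraries and 1.09 and 1.19 in the vehicle libraries, where the authors' deposited table gave a difference of 4.28. The ratio of nfil3 to nfil3-6 was 1.51 and 1.096 in the alfacalcidol libraries and 1.12 and 1.08 in the vehicle libraries, with alfacalcidol 1 apart from the other 3. The ratio of dbpb to dbpa was -0.12 and -0.17 in the alfacalcidol libraries and -0.11 and 0.11 in the vehicle libraries. Across the families, the ratio of nfil3-5 to dbpb had a range of 0.71, at 1.01 and 1.65 in the alfacalcidol libraries and 1.64 and 0.94 in the vehicle libraries, again with alfacalcidol 2 beside vehicle 1.

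Levels of single genes also differed between the sources, which were normalized separately and differ in tissue. The gene nfil3-5, which the authors' deposited table puts at 25.6 CPM, averaged 129.4 ± 15.04 CPM in the alfacalcidol libraries and 135.4 ± 12.3 CPM in the vehicle libraries (SD, n = 2 each). The gene dbpb was higher in the authors' deposited table, where it stood at 153 CPM, against 51.9 ± 10.3 CPM in the alfacalcidol libraries and 56.1 ± 13.9 CPM in the vehicle libraries (SD, n = 2 each). The ratio of the level in the authors' deposited table to the mean of the 4 libraries ran from 0.193 for nfil3-5 to 2.84 for dbpb, with nfil3-6 at 1.31 and the other 6 genes between 0.285 and 0.883. Levels were not ranked between genes, because no transcript lengths on this build were at hand. A gene named HLF in the table of gene names, which may or may not be the unmatched hlfb and was not counted as a member, had 331 and 354 reads in the alfacalcidol libraries and 281 and 329 reads in the vehicle libraries. The copy nfil3-4, outside the list, had 0 and 0 reads in the alfacalcidol libraries and 1 and 0 reads in the vehicle libraries.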

How the data were processed

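The authors deposited raw counts of reads for 31462 Ensembl genes in each library; the submitters' processing notes name CASAVA, TopHat2 and featureCounts and the build GRCz10, without versions or a strand setting. The authors' deposited edgeR table holds log2 fold changes, log2 CPM levels, p-values and adjusted p-values for 14962 genes. Its adjusted p-values equal a Benjamini-Hochberg adjustment of its p-values, recomputed here. Table CPM is 2 to the power of its log2 CPM.

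Counts were fitted with the quasi-likelihood F-test of edgeR 4.0.16 (R 4.3.3) after filterByExpr and TMM, with the group as the one term, two-sided, adjusted by Benjamini-Hochberg over all genes, threshold 0.05. The fit was tested on simulated data, drawn as independent libraries with the same spread setting for all genes. Such data lack the crossed order of the real libraries, so the simulation does not cover it. Each 95% interval uses a standard error derived from the F statistic. No pair of libraries was identical (mean chi-square per gene 2.29 to 24.1). DESeq2 1.42.0, other scalings, filters and thresholds, the replicate number as a block and each library left out were alternatives.

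The members and lists were chosen with earlier results of these data known. All members are named, with up to 4 called genes per list by lowest p. Genes beyond that rule (xpc, gstt1a, cyp2ad2, pdxka, pdxkb, the ROR class and chromosomal neighbours) were chosen after their values were seen.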

Additional observations from a re-analysis of the deposited data

How the results depend on the processing

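The authors' deposited table called 8 of the 9 genes at an adjusted p of 0.05, 8 at 0.01, 8 with Bonferroni adjustment, 9 at 0.1 and 7 with a 2-fold minimum. In the count libraries 0 genes were called under RLE, upper-quartile or no scaling, without a low-count filter, with 1 CPM in 2 libraries, with DESeq2, at an adjusted p of 0.1, and with each library left out (lowest 0, highest 0), where a lone library is assumed to vary like the other group. Same-numbered libraries deviated in opposite directions (correlation -0.64 over 19145 genes), so the numbers did not pair them. The replicate block called 0 genes. The crossed pairing as a block, chosen after seeing the data, called 7 genes and 0 of the 9. With that block 788 of 22428 genes had an unadjusted edgeR p under 0.05. The signs of the 9 fold changes held under the 8 settings that kept all libraries, but 15 of 36 values with a library left out turned sign. Their lowest and highest values were -0.35 and 0.16 for dbpb, -0.15 and 0.21 for dbpa, -0.10 and 0.20 for tefa, -0.15 and 0.036 for tefb, and -0.10 and 0.066 for hlfa. They were -0.058 and 0.22 for nfil3, -0.19 and 0.049 for nfil3-5, -0.33 and 0.083 for nfil3-6, and -0.20 and -0.02 for nfil3-2. The cause was not tested. No alternative scaling or left-out library could be tried on the table, which holds no values per library.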
